A study of Mus musculus with 7 samples.

Results

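The genes described here drive the cell cycle and the copying of DNA, and they were followed in sorted mouse hypothalamic neurons. The 40 members were taken by gene symbol from a deposited table of 18331 uniquely named genes, and all 40 were found in it. By role they comprised 13 genes of DNA replication and nucleotide supply, 18 genes of mitosis, and 9 cyclin and CDK inhibitor genes that act mainly around G1 and S phase. The study profiled Pomc neurons, whose peptides suppress appetite, and Npy neurons, whose neuropeptide Y stimulates feeding, both purified by fluorescence-activated sorting. All came from arcuate nuclei dissected at embryonic day E15.5 and dissociated, and each library was made from 1 ng of total RNA. The sources used here name no treatment, strain, reporter allele or number of embryos. The p-values therefore describe the spread of these libraries alone, and that spread may be technical. The comparison was between the 4 Pomc libraries and Npy replicates 1 and 2. The column for Npy replicate 3 was left out because each of its values, in all 15223 genes with a value in the other Npy columns, equals the mean of those columns times a whole percent between 95 and 105, within 0.0001 of a percentage point.

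A dividing cell passes through G1, S phase, G2 and mitosis, and each passage is run by cyclins that switch on cyclin-dependent kinases (CDKs). In S phase the MCM helicase, loaded with the help of Cdc6 and Cdt1, opens the DNA, and in mitosis kinases, motor proteins and the anaphase-promoting complex part the chromosomes. Neurons leave the cycle as they are born, and at this age the ventral hypothalamus holds new neurons beside dividing progenitors and early glia. Transcripts of mitosis genes are made mostly in G2 and M phase, whereas several replication genes also serve DNA repair and genome maintenance.

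Values are TPM (transcripts per 1000000, which take gene length into account and so allow levels of different genes to be compared). The sort marker Pomc ranged from 352 to 770 TPM in Pomc neurons, against 24.0 and 59.4 TPM in Npy neurons, and Npy from 2.11 to 152 TPM, against 728 and 513 TPM. Genes with a value above 0 numbered 12493 to 14656 in the Pomc libraries and 14933 and 12922 in the Npy libraries. Low values of genes with a single transcript fell on whole multiples of a step in 52.9 to 69.6% of cases (within 0.05 of a read, 10% by chance for a fixed step). The steps imply about 49700000 to 122500000 reads on genes per library, an estimate that is uncertain by small whole multiples. PCR copies may be included in these reads, so a 0 in the table is not read here as absence of the transcript.

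None of the 39 members tested passed an adjusted p of 0.05 between Pomc and Npy neurons by limma (0.412% of all 13845 tested genes did), and the lowest adjusted p of a member was 0.222. The direction was nevertheless uneven across the 3 groups of members. All 18 mitosis genes had a log2 fold change (Pomc minus Npy, on log2(TPM + 1)) below 0, as did 10 of 13 replication genes and 7 of 9 cyclin and inhibitor genes. Over all tested genes 48.7% were below 0. The median log2 fold change was -1.79 for the mitosis genes, -0.24 for the replication genes and -0.78 for the cyclins and inhibitors, against 0.02 over all tested genes. At an unadjusted p under 0.05, 7 mitosis, 2 replication and 1 cyclin gene were lower in Pomc neurons, and higher values at that p were found for no member. That rule was met in the same direction by 3.28% of all tested genes. Of the mitosis genes, 1 (Birc5) entered the test through the Npy libraries alone and so had to be lower in Pomc neurons. Without Npy replicate 1 or Pomc replicate 3 the mitosis count was 2 or 3, and the median without Npy replicate 1 was -1.32. The replication count was 1 without Npy replicate 1, Npy replicate 2 or Pomc replicate 3, and its median was -0.45 without Npy replicate 1, -0.37 without Pomc replicate 4 and -0.12 without Pomc replicate 1. The median of the cyclins and inhibitors was -0.46 without Npy replicate 1. In a bulk library, fewer cells of a type and less RNA per cell cannot be told apart.

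**Figure D1:**
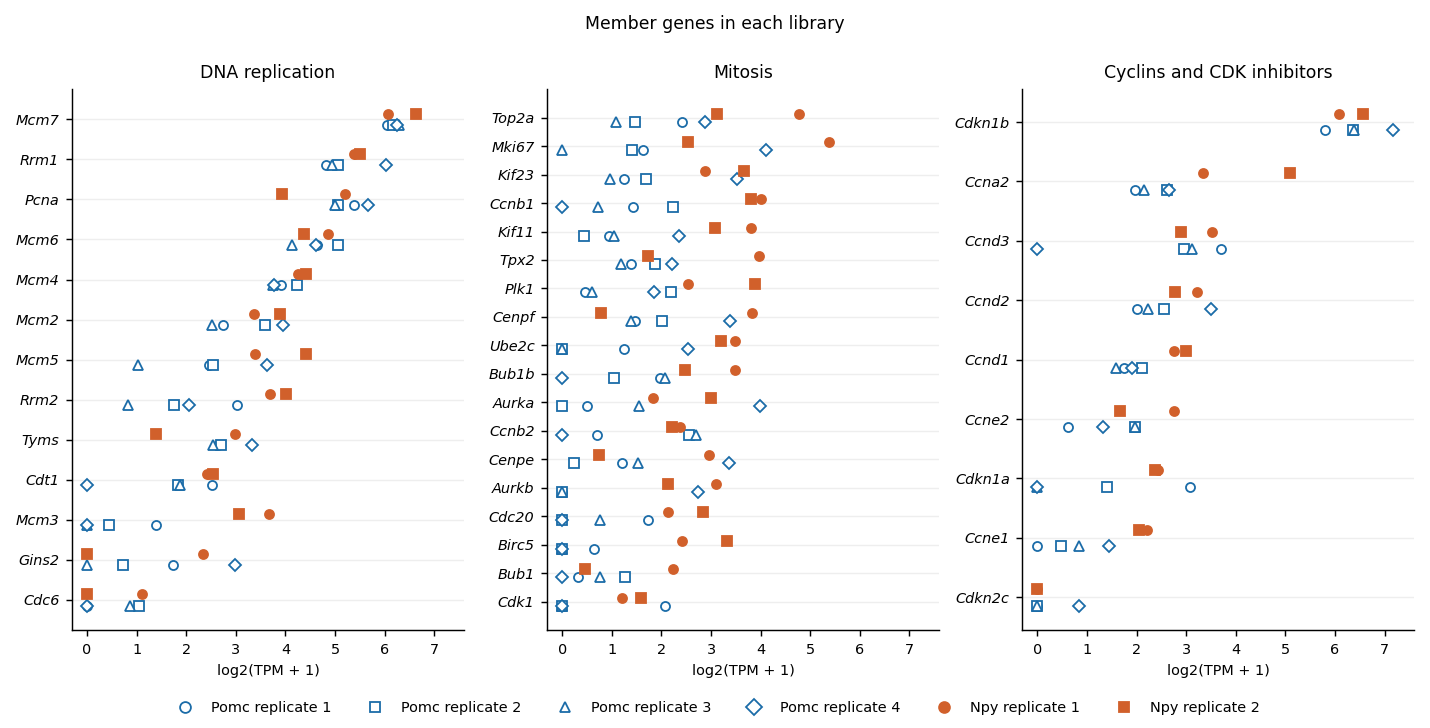
Level of each of the 40 member genes in each library, as log2(TPM + 1) on the horizontal axis, in 3 panels for replication genes, mitosis genes, and cyclins and CDK inhibitors. Filled orange points are Npy replicates 1 and 2 and open blue points are the 4 Pomc replicates. The Npy points lie wholly to the right of the Pomc points in 8 of the 18 mitosis genes. The same holds for 3 of the 13 replication genes and 3 of the 9 cyclins and inhibitors (7.86% of all tested genes). In the other members they overlap, among them Mcm7, Rrm1, Pcna, Mcm6, Cdkn1b and the mitosis gene Mki67.

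Replication genes had the highest mean level of the 3 groups in every library, and several of them overlapped between the neuron types. Mcm7, a subunit of the MCM helicase (chromosome 5, 138164583 to 138172422, GRCm38), stood at 65.0, 71.0, 76.8 and 74.7 TPM in Pomc replicates 1 to 4, against 66.1 and 98.4 TPM in Npy replicates 1 and 2. The groups overlapped, and its log2 fold change was -0.17 ± 0.23 (SE, limma adjusted p = 0.908). Its exons overlap those of Ap4m1, Cops6 and the microRNA genes Mir25 and Mir93, so its level is uncertain. Mcm6 stood at 23.9, 32.3, 16.6 and 23.4 TPM against 28.2 and 19.8 TPM, again overlapping, with a log2 fold change of -0.01 ± 0.39. Rrm1, the large subunit of ribonucleotide reductase, which makes DNA building blocks, stood at 27.2, 32.5, 29.7 and 63.9 TPM against 41.0 and 44.4 TPM. Here 3 Pomc libraries lay below both Npy libraries and Pomc replicate 4 above them.

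Pcna, the sliding clamp of DNA polymerases (chromosome 2, 132249162 to 132253314), had the highest log2 fold change of all members, 0.71 ± 0.41 (limma adjusted p = 0.791). It stood at 40.8, 32.1, 31.0 and 50.02 TPM in Pomc neurons, against 36.0 and 14.1 TPM in Npy neurons. Its Pomc values enclosed that of Npy replicate 1, and the low value belonged to Npy replicate 2. Mcm4 stood at 14.0, 17.7, 12.5 and 12.7 TPM in Pomc neurons, against 18.04 and 20.3 TPM in Npy neurons, without overlap but with a log2 fold change of only -0.42 ± 0.41.

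A smaller set of replication genes was low in Pomc neurons. Mcm3, another helicase subunit (chromosome 1, 20802968 to 20820312), stood at 1.61, 0.366, 0 and 0 TPM in Pomc replicates 1 to 4, against 11.8 and 7.36 TPM in Npy neurons. No Pomc library reached the lower Npy value, and its log2 fold change of -2.91 ± 0.70 (limma adjusted p = 0.222) was the lowest of all 40 members. Rrm2, the small subunit of ribonucleotide reductase, whose transcript is made chiefly in S phase, stood at 7.09, 2.38, 0.772 and 3.13 TPM against 11.9 and 15.1 TPM. These groups did not overlap either (log2 -1.94 ± 0.72, adjusted p = 0.569), while its partner Rrm1 overlapped. Mcm5 stood at 4.52, 4.80, 1.03 and 11.3 TPM against 9.52 and 20.3 TPM, with Pomc replicate 4 between the Npy libraries.

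The other replication members were low in both groups and overlapped. Mcm2 ranged from 4.77 to 14.4 TPM in the Pomc libraries against 9.37 and 13.7 TPM, and Tyms, which makes thymidylate, from 4.801 to 9.09 TPM against 6.89 and 1.64 TPM. The licensing factor Cdt1 ranged from 0 to 4.70 TPM against 4.36 and 4.82 TPM. Gins2, a part of the replicative helicase complex whose exons overlap another gene, and the loading factor Cdc6 were each listed at 0 in Npy replicate 2 and in at least 1 Pomc library. In all, 3 of the 13 replication members (Mcm3, Mcm4 and Rrm2) had both Npy libraries above every Pomc library, as did 7.86% of all tested genes. Leaving out 1 library turned the sign of Mcm6, Mcm7, Gins2, Cdc6 and Tyms.

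The promoters of these genes are shown because replication and mitosis genes are classically switched on through different sequence elements. E2F factors bind sites that were searched here as TTCGCGC or TTGGCGC and also as TTCCCGC or else TTGCCGC. The CHR element, read by the DREAM and MuvB complexes, was searched as TTTGAA and TTCGAA, and the CCAAT box, bound by NF-Y, as CCAAT. Both strands were searched in the 250 bases before each RefSeq start (GRCm38.p6). A match describes letters and shows no binding. The E2F motif TTGGCGC can overlap CCAAT on the opposite strand. Of 40 members, 32 had an entry, with 36 promoters. The 3 replication genes with the lowest p and a match are given 5′ to 3′ on the gene's strand, with all matches in capitals. They are chr1:20820313-20820562 (minus strand) for Mcm3, chr12:24708004-24708253 (plus) for Rrm2 and chr8:75109259-75109508 (plus) for Mcm5.
Mcm3: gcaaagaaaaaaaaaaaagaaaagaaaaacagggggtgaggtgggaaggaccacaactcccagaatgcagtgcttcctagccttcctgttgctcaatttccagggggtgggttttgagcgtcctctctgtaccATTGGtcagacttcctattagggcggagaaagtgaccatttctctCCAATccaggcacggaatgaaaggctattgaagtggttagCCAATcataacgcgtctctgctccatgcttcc
Rrm2: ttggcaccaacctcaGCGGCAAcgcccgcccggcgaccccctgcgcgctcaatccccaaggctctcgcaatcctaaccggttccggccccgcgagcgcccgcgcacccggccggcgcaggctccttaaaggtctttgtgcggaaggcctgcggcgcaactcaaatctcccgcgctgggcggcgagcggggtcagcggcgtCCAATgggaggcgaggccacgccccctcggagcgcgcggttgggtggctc
Mcm5: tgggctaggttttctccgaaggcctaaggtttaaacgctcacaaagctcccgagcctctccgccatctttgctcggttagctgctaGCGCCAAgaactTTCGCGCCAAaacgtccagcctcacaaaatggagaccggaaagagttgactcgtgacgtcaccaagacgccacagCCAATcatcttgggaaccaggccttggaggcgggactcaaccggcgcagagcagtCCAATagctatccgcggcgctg
Mcm5 held 3 E2F matches, of which the nearest to the start began 149 bases before it, and 2 CCAAT boxes. Rrm2 held 1 E2F match, which began 235 bases before the start, and a CCAAT box 50 bases before it. Mcm3 held 3 CCAAT boxes and no E2F match of these letters. Among the replication members 7 of 12 promoters (58.3%) held an E2F match, against 7.89% of all 32851 promoters, and 2 of 12 (16.7%) held a CHR match, against 17.1%. These 12 promoters belong to 11 genes. Mcm7 is counted with 2 promoters, both with an E2F match and 1 with a CHR match.

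Mitosis genes averaged lower levels than replication genes in every library, and the lowest averages were those of the Pomc libraries. Birc5, which encodes survivin of the chromosomal passenger complex (chromosome 11, 117849251 to 117855743), stood at 0.558, 0, 0 and 0 TPM in Pomc replicates 1 to 4, against 4.31 and 9.07 TPM in Npy replicates 1 and 2. Its log2 fold change was -2.71 ± 0.66 (limma adjusted p = 0.23). Ccnb1, cyclin B1, which activates Cdk1 at the entry into mitosis (chromosome 13, 100778650 to 100786570), stood at 1.70, 3.73, 0.661 and 0 TPM against 15.2 and 12.96 TPM. The Npy libraries lay close together and every Pomc library far below them (log2 -2.81 ± 0.76, adjusted p = 0.31). The annotation also names a pseudogene for each of Ccnb1, Ccnb2, Ccnd3 and Tyms and 2 for Pcna, and reads could be split between such copies.

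The other mitosis genes without overlap act in the spindle, its checkpoint, chromosome untangling and mitotic exit. Kif11, the motor that pushes the spindle poles apart (chromosome 19, 37376403 to 37421859), stood at 0.924, 0.359, 1.06 and 4.13 TPM in Pomc neurons against 13.01 and 7.51 TPM (log2 -2.25 ± 0.74, limma adjusted p = 0.467). Plk1, a kinase of spindle assembly and mitotic entry, stood at 0.375, 3.57, 0.521 and 2.62 TPM against 4.78 and 13.8 TPM. In both genes all Pomc libraries lay below both Npy libraries. Ube2c, the ubiquitin-conjugating enzyme of the anaphase-promoting complex, stood at 1.37, 0, 0 and 4.83 TPM against 10.2 and 8.25 TPM. Cdc20, an activator of that complex, stood at 2.32, 0, 0.686 and 0 TPM against 3.41 and 6.11 TPM. Neither overlapped between the groups, but exons of Ube2c overlap Tnnc2 and those of Cdc20 overlap Elovl1. Top2a, the topoisomerase that untangles sister chromatids, stood at 4.30, 1.77, 1.13 and 6.40 TPM against 26.4 and 7.73 TPM, and Bub1b, a spindle checkpoint kinase, at 2.91, 1.07, 3.23 and 0 TPM against 10.3 and 4.60 TPM. With these, 8 of the 18 mitosis genes had both Npy libraries above every Pomc library (7.86% of all tested genes), and none had every Pomc library above both Npy libraries (8.05%).

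Mki67, the most used marker of dividing cells (chromosome 7, 135689784 to 135716361), overlapped between the groups. It stood at 2.095, 1.65, 0 and 16.4 TPM in Pomc replicates 1 to 4, against 40.6 and 4.84 TPM in Npy replicates 1 and 2. The highest Pomc library thus exceeded the lower Npy library, and the log2 fold change of -2.17 had a standard error of 1.17 (limma adjusted p = 0.773). Aurkb, the kinase of the chromosomal passenger complex, was listed at 0 in Pomc replicates 1 to 3 but reached 5.70 TPM in Pomc replicate 4, against 7.53 and 3.36 TPM. Kif23, a motor of cytokinesis, stood at 1.37, 2.21, 0.938 and 10.4 TPM against 6.39 and 11.6 TPM. In these 3 genes, Pomc replicate 4 alone reached the Npy range.

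The remaining mitosis genes did not separate the groups. Aurka, the kinase of the spindle poles, reached its highest value, 14.8 TPM, in Pomc replicate 4, where Pomc replicates 1 to 3 had 0 to 1.94 TPM and Npy neurons 2.54 and 7.01 TPM. The kinetochore genes Cenpe and Cenpf stood at 6.73 and 13.2 TPM in Npy replicate 1 but at 0.667 and 0.721 TPM in Npy replicate 2, below 3 and all 4 of the Pomc libraries. Without Npy replicate 1 their log2 fold changes turned from -0.26 and -0.24 to 0.84 and 1.28. Tpx2, a spindle assembly factor, had 14.6 and 2.31 TPM in Npy neurons against 1.26 to 3.62 TPM, and the checkpoint kinase gene Bub1 had 3.72 and 0.379 TPM against 0 to 1.42 TPM. In both, Npy replicate 1 lay above and Npy replicate 2 within the Pomc range. Cdk1 itself was near the lower end of the table, at 3.20 TPM in Pomc replicate 1, 0 in the other 3 and 1.30 and 2.01 TPM in Npy neurons. Ccnb2, cyclin B2, reached 5.46 TPM in Pomc replicate 3, above the 4.17 and 3.65 TPM of the Npy libraries.

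**Figure D2:**
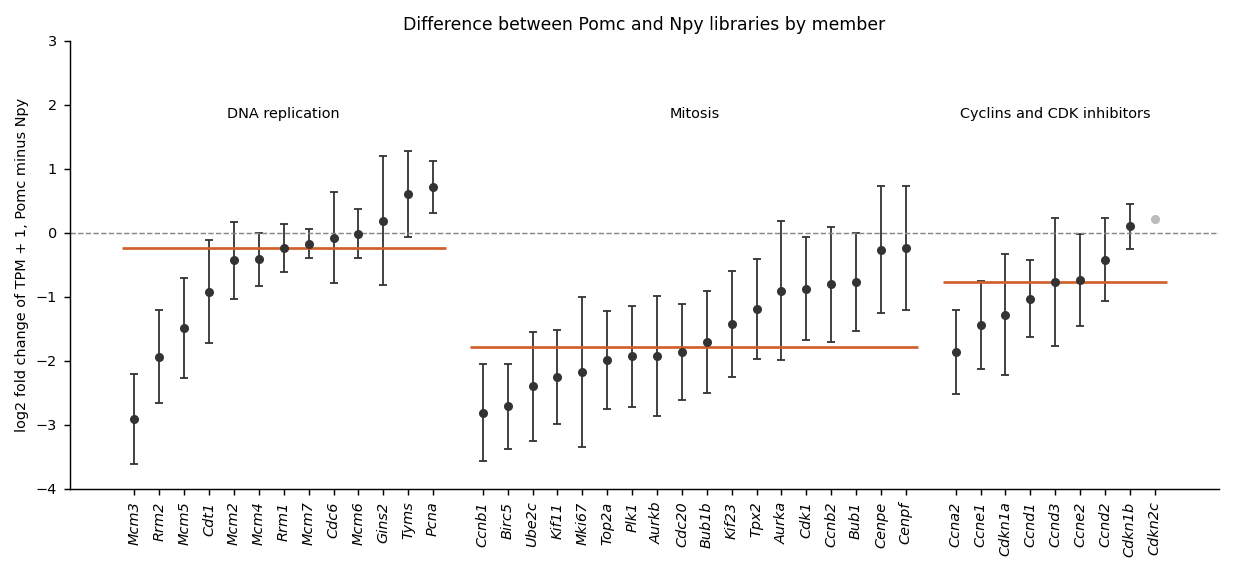
Log2 fold change of TPM + 1, Pomc minus Npy, for each member (points) with the standard error of the limma fit (bars), ordered within each group of members. The orange lines are the group medians of -0.24, -1.79 and -0.78, the dashed line is 0, and Cdkn2c in grey was not tested.

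The 3 mitosis genes with the lowest p and a match are Ccnb1 at chr13:100786487-100786736 (minus strand), Kif11 at chr19:37376132-37376381 (plus) and Ube2c at chr2:164769679-164769928 (plus). Birc5, which has a lower p, held no match of these letters in its window.
Ccnb1: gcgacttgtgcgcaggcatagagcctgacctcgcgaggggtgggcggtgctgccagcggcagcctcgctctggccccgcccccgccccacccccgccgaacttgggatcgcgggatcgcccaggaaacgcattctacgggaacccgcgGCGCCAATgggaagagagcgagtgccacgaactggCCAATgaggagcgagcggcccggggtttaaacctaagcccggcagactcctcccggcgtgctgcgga
Kif11: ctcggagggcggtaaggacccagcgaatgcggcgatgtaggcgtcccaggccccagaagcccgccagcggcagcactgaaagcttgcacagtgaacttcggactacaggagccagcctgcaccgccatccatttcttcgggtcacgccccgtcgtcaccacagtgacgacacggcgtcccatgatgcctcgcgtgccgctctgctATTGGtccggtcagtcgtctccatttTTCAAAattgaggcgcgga
Ube2c: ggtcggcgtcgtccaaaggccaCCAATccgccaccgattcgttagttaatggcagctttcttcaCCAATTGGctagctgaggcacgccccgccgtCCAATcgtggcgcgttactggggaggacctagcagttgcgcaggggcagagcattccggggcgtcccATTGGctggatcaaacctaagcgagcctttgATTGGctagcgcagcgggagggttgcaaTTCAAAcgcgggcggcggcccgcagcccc
Kif11 and Ube2c each paired a CHR match, 19 and 29 bases before the start, with the nearest CCAAT box at 45 and 57 bases. Ccnb1 held 2 CCAAT boxes, 1 of which overlaps its E2F match, and no CHR match of these letters. Among the mitosis members 8 of 16 promoters (50%) held a CHR match and 15 of 16 (93.8%) a CCAAT box, against 17.1% and 33.8% of all promoters. The CCAAT box was common in the replication promoters too, in 9 of 12 (75%). All 8 with a CHR match also had a CCAAT box, a pair found in 6.02% of all promoters and in 2 of the 12 replication promoters. An E2F match was found in 3 of 16 (18.8%). The set of all promoters includes many noncoding genes, and promoters of 8 members without an entry are not covered.

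**Figure D3:**
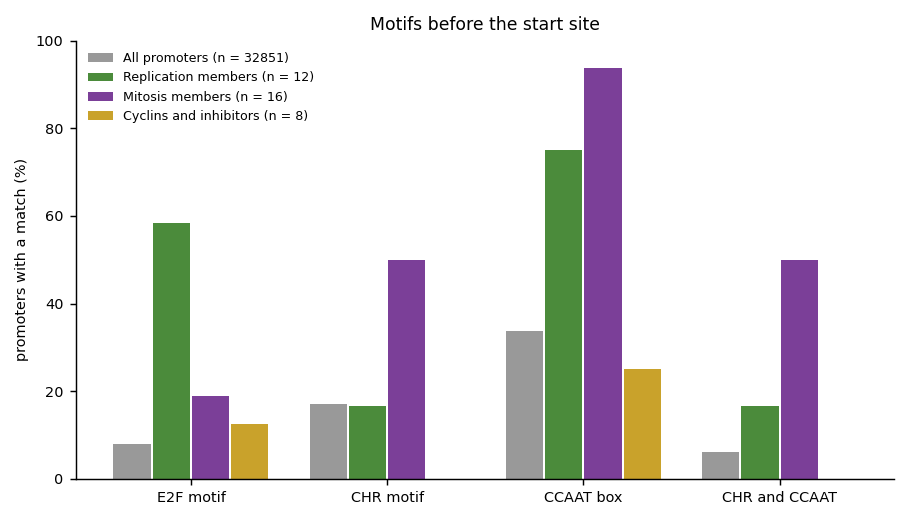
Share of promoters, in percent, with at least 1 match in the 250 bases before the start, for the E2F, CHR and CCAAT motifs and for CHR and CCAAT together. Bars are all promoters and those of replication, mitosis and cyclin or inhibitor members. E2F matches peak in the replication bars at 58.3% and CHR matches in the mitosis bars at 50%.

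Among the 9 cyclins and CDK inhibitors, both Npy libraries lay above all Pomc libraries in 3 (7.86% of all tested genes). Ccna2, cyclin A2, which acts in S phase and G2, stood at 2.94, 5.16, 3.46 and 5.28 TPM in Pomc neurons, against 9.07 and 33.3 TPM in Npy neurons (log2 -1.86 ± 0.66, limma adjusted p = 0.546). The groups did not overlap, although its Npy values lay far apart and its exons overlap Exosc9. Ccne1, cyclin E1 of the step from G1 to S phase, stood at 0, 0.393, 0.782 and 1.72 TPM against 3.66 and 3.12 TPM, also without overlap. Ccnd1, cyclin D1, which links growth signals to the cycle, was the third without overlap, at 2.38, 3.34, 2.02 and 2.75 TPM against 5.72 and 6.99 TPM (log2 -1.03 ± 0.60).

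Ccnd2, Ccnd3 and Ccne2, whose exons all overlap another gene of the table, overlapped in level between the groups. Ccnd2 stood at 3.01 to 10.4 TPM against 8.28 and 5.84 TPM, and Ccnd3 at 0 to 11.96 TPM against 10.5 and 6.49 TPM, with the 0 in Pomc replicate 4. The inhibitor Cdkn1b (p27, chromosome 6, 134920401 to 134925513), which holds neurons out of the cycle, was, with Mcm7, the most abundant member in all 6 libraries. It stood at 54.9, 80.8, 82.7 and 143 TPM in Pomc neurons, against 66.9 and 93.8 TPM in Npy neurons. The Pomc values enclosed both Npy values (log2 0.10 ± 0.35, limma adjusted p = 0.964), and the sign turned without Npy replicate 1 or Pomc replicate 4 (-0.14 each). Cdkn1a (p21), a target of p53, ranged from 0 to 7.44 TPM against 4.43 and 4.16 TPM. Cdkn2c (p18), with 0.799 TPM in Pomc replicate 4, was listed at 0 everywhere else and was not tested.

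The group levels show how the libraries were ordered. Mean log2(TPM + 1) of the 18 mitosis genes was 1.19, 1.02, 0.91 and 1.83 in Pomc replicates 1 to 4 and 3.13 and 2.48 in Npy replicates 1 and 2. For the 13 replication genes it was 3.18, 3.09, 2.60 and 3.25 in the Pomc libraries and 3.75 and 3.397 in the Npy libraries. For the 9 cyclins and inhibitors it was 2.103, 2.272, 2.031 and 2.096 in the Pomc libraries and 2.925 and 2.937 in the Npy libraries. In all 3 groups of genes the Npy libraries were highest. The gap between the lower Npy and the highest Pomc library was wider for mitosis, and for cyclins and inhibitors, than for replication. The mitosis mean lay below the replication mean by 0.62 and 0.92 in the Npy libraries and by 1.42 to 2.07 in the Pomc libraries, on the log2 scale. The replication genes are the more abundant, and a pseudocount of 1 compresses differences of low genes, which the mitosis genes are. No p is given for these means, because the members were chosen with earlier results known.

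The summed level shows the same contrast in TPM. The mitosis genes together took 27.1, 26.6, 21.1 and 87.7 TPM in Pomc replicates 1 to 4 and 188 and 107 TPM in Npy replicates 1 and 2, without overlap. The replication genes together took 202, 214, 181 and 270 TPM against 248 and 260 TPM, with Pomc replicate 4 above both Npy libraries. A sum follows its most abundant genes. Mcm7, whose level is uncertain, alone took 65.0 to 76.8 TPM of the Pomc sums and 66.1 and 98.4 TPM of the Npy sums. Of the 18 mitosis genes, 1, 6, 5 and 7 were listed at 0 in Pomc replicates 1 to 4 and none in either Npy library.

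Pomc replicate 4 stood apart from the other Pomc libraries in the members. It had the highest Pomc value in 10 of 18 mitosis, 6 of 13 replication and 5 of 9 cyclin and inhibitor genes, yet it was at 0 in 7 mitosis genes. Across the 40 members its log2(TPM + 1) correlated with Pomc replicates 1 to 3 at r = 0.62 to 0.66, while those 3 correlated at 0.82 to 0.91 with each other and the Npy pair at 0.70, a description over genes. It also held the highest level of blood and microglia genes. The 7 microglia markers summed to 43.0 TPM there, where Pomc replicates 1 to 3 had 0 to 2.27 TPM and Npy neurons 3.79 and 9.97 TPM. Of the 43.0 TPM, P2ry12 held 22.7, Csf1r 13.1 and Cx3cr1 6.55 TPM. C1qa and Tmem119 were at 0 in all 6 libraries, and Aif1 had a value in Pomc replicate 3 alone. C1qb went the other way, with 2.71 TPM in Npy replicate 1, 8.33 TPM in Npy replicate 2 and only 0.680 TPM in Pomc replicate 4. The 7 red blood cell markers, led by Hbb-bs at 64.3 TPM, summed to 88.8 TPM there, against 0 to 36.0 TPM in the other Pomc and 1.31 and 0 TPM in the Npy libraries. Their part in the member values was not tested. Without Pomc replicate 4, 9 mitosis genes were lower in Pomc neurons at an unadjusted p under 0.05, and the median of the mitosis genes was -1.85.

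The Npy libraries also differed between themselves. Of the 18 mitosis genes, 12 were higher in Npy replicate 1 and 6 in Npy replicate 2, and 11 differed by more than 2-fold. Mki67, Top2a, Tpx2, Cenpe, Cenpf and Bub1 were higher in Npy replicate 1, whereas Ccna2, Plk1, Aurka, Birc5 and Kif23 were higher in Npy replicate 2. Among the 13 replication genes 5 differed by more than 2-fold between these libraries.

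Markers of oligodendrocyte precursors, which divide in the embryonic brain, averaged higher in both Npy libraries than in any Pomc library, as did the mitosis genes. The mean log2(TPM + 1) of the markers was 4.80 and 4.76 in Npy replicates 1 and 2, where the mitosis mean was 3.13 and 2.48. It was 1.25, 1.04, 1.34 and 1.34 in Pomc replicates 1 to 4, where the mitosis mean was 1.19, 1.02, 0.91 and 1.83. Of the 8 markers 6 were lower in the Pomc libraries by limma, but 5 of these 6 (Pdgfra, Cspg4, Olig2, Sox10 and Gpr17) entered the test through the Npy libraries alone and so had to be lower. Pdgfra had 83.7 and 77.5 TPM in Npy neurons and at most 0.484 TPM in Pomc neurons (adjusted p = 0.00345). Cspg4 and Olig2 were listed at 0 in all 4 Pomc libraries. The 8 markers summed to 269 and 242 TPM in the Npy libraries and to 45.2 to 73.7 TPM in the Pomc libraries. Radial glia and tanycyte markers, 9 genes of which none passed, summed to 638 and 421 TPM against 293 to 659 TPM and so overlapped. Their highest marker, Vim, took most of the Pomc sums and stood at 206 and 155 TPM against 201 to 530 TPM. Of the others, 3 were named after their values were seen, because their Npy values exceeded all 4 Pomc values (7.86% of all tested genes). Fabp7 stood at 323 and 176 TPM against 1.61 to 61.6 TPM (adjusted p = 0.272), Nes at 49.0 and 40.1 TPM against 14.6 to 26.4 TPM (adjusted p = 0.418) and Hes5 at 14.0 and 28.9 TPM against 0.999 to 9.58 TPM (adjusted p = 0.699). Rax, Aldh1l1, Slc1a3, Hes1 and Sox9 overlapped between the groups. Rax and Aldh1l1 had log2 fold changes above 0 (1.61 and 0.14), as had Vim, and Slc1a3, Hes1 and Sox9 below 0. Markers of neurogenic progenitors, led by Hes6, summed to 102 and 206 TPM against 123 to 234 TPM, and none of the 7 tested passed. Their average on the log2 scale was nevertheless higher in every Pomc library (3.09, 3.76, 3.30 and 3.84) than in either Npy library (2.98 and 3.04). This order was opposite to that of the mitosis genes. Of the 8 listed, 5 had log2 fold changes above 0 and 3 below 0. Only Dll3 separated the groups, at 2.62 to 13.3 TPM in Pomc neurons against 1.18 and 0 TPM (limma adjusted p = 0.433). Whether any of these cells contributed to the member values was not tested. The summed level of 10 pan-neuronal genes was 5449 to 6489 TPM in Pomc neurons against 4817 and 3942 TPM in Npy neurons. Tubb3 alone took 1603 to 2346 TPM of the Pomc sums. Their mean log2(TPM + 1) barely separated Pomc replicate 4 (8.447) from Npy replicate 1 (8.446). None of the 10 passed by limma (lowest adjusted p = 0.28). Log2 fold changes were above 0 for 7 of them and below 0 for Snap25, Syt1 and Rbfox3.

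**Figure D4:**
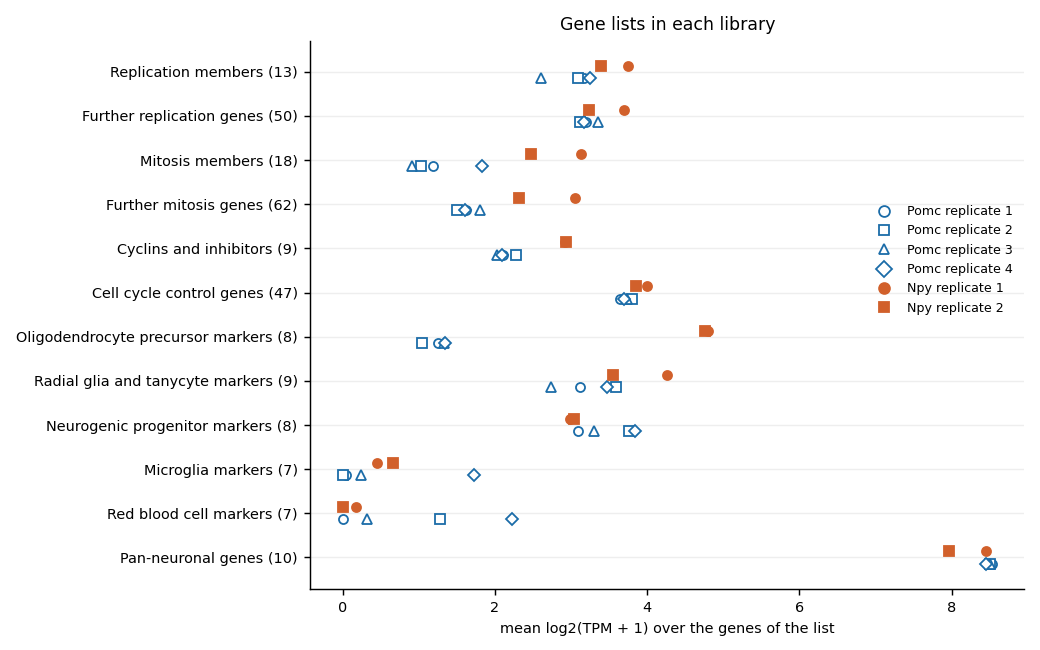
Mean log2(TPM + 1) over each gene list (horizontal axis) in each library, with filled orange points for Npy replicates 1 and 2 and open blue points for the 4 Pomc replicates, and the number of genes of each list in brackets. The Npy points lie apart from the Pomc points for mitosis genes, cyclins and inhibitors, and oligodendrocyte precursor markers. They lie near them for replication and cell cycle control genes.

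Further genes of the same pathways were listed from general knowledge. Further mitosis genes again averaged higher in both Npy libraries than in any Pomc library, whereas further replication genes overlapped. Of 62 further mitosis genes 57 were tested and none passed by limma, but 17 were lower in Pomc neurons at an unadjusted p under 0.05 (3.28% of all tested genes) and none was higher. Of these 17, 13 reached 1 TPM in a Pomc library, and the other 4 entered the test through the Npy libraries alone. The median of the 62 was -0.96, and in 23 of the 57 the lower Npy library exceeded every Pomc library (7.86% of all tested genes). The 3 with the lowest p were Kif15, a spindle motor (at most 1.19 TPM in the Pomc libraries, 8.74 and 5.05 TPM in the Npy libraries), Ckap2l, a spindle protein (at most 2.84 against 9.60 and 11.7 TPM), and Pbk, a mitotic kinase (at most 2.00 against 5.70 and 10.4 TPM). Without Npy replicate 1 or 2 the count of 17 was 4 or 8.

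Of 50 further replication genes 46 were tested and none passed, and the median of the 50 was -0.31. In 11 of the 46 the lower Npy library exceeded every Pomc library (7.86% of all tested genes). In 2 every Pomc library lay above both Npy libraries (8.05%). At an unadjusted p under 0.05, 3 were lower in Pomc neurons (3.28% of all tested genes). These 3 were Pole2, a subunit of DNA polymerase epsilon (at most 0.542 against 6.46 and 2.99 TPM, tested through the Npy libraries alone), Chaf1b, of the chromatin assembly factor (at most 1.51 against 6.37 and 6.63 TPM), and Uhrf1, which helps to copy DNA methylation (at most 2.49 against 7.32 and 9.95 TPM). Of 47 genes of cell cycle control 42 were tested and none passed by limma. At an unadjusted p under 0.05, 3 of them were lower in Pomc neurons and 3 were higher, where 3.28% of all tested genes were lower and 4.08% higher. The lower 3 were Wee1, which restrains Cdk1 (at most 0.786 against 4.5 and 12.3 TPM, tested through the Npy libraries alone), Cdk2, the partner of cyclins E and A (at most 1.16 against 3.79 and 9.58 TPM), and Mybl2, the MYB factor of the MuvB complex (at most 2.11 against 4.69 and 4.33 TPM).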

How the data were processed

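RNA of sorted neurons was sequenced from a stranded total RNA kit, per the labels. The values deposited by the authors were read as TPM normalized to gene length and depth, since the columns used sum to 999932 to 999960 although the file header gives no unit, and depth was estimated from their low values. The submitters' processing notes name HISAT2, mm10 and edgeR 3.8 without roles. The sources used here name no counting tool, annotation or use of strand, so the 8 members whose exons overlap another gene of the table are uncertain. The 4 rows with repeated symbols were left out.

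Genes with at least 1 TPM in at least 2 of the 6 libraries were tested on log2(TPM + 1) with limma 3.58.1 in R 4.3.3 (prior variance following mean expression, two-sided, Benjamini-Hochberg over 13845 genes), a scale that understates changes of low genes. The fit was tested on simulated data, with changes placed only in genes above the median level, so changes of low genes were not covered. Medians are over all listed genes. Short RNA genes took 10.8 to 13.2% of the Pomc and 14.1 and 17.3% of the Npy libraries, so scaling was varied, as were pseudocount, filter, prior, block and libraries. Positions come from GENCODE M21 (GRCm38) and promoters from RefSeq (GRCm38.p6). Named genes are all members and, of each further list, the 3 with the lowest p in its main direction. Promoters were printed for the 3 replication and 3 mitosis members with the lowest p and a match. Members and lists were chosen with earlier results of these data known.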

Additional observations from a re-analysis of the deposited data

Results flagged for a closer look

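In each of 40 members and 3 group means, the Pomc library farthest from the other 3 was compared with the spread of all 4. Of these 43 checks 9 stood out, where chance gives about 1 in 20. Pomc replicate 4 was high for Rrm1 (63.9 TPM against 27.2 to 32.5), Tyms (9.09 TPM against 4.801 to 5.47), Mki67 (16.4 TPM against 0 to 2.095), Aurka (14.8 TPM against 0 to 1.94) and Kif23 (10.4 TPM against 0.938 to 2.21). The other 4 are genes with 3 Pomc libraries at 0, in which any value above 0 stands out, so that the chance rate does not apply. They are Aurkb (5.70 TPM) and Cdkn2c (0.799 TPM) in Pomc replicate 4, and Cdk1 (3.20 TPM) and Birc5 (0.558 TPM) in Pomc replicate 1.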

How the results depend on the processing

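Over 14 alternatives, 496 of 516 member fold changes kept their direction and stayed unpassed, 2 passed and 18 changed sign, in 9 members. No member passed in any alternative except with Npy replicate 3 counted as a replicate, when 2 did (Mcm3 and Birc5, adjusted p = 0.0291 and 0.0245) and 205 genes passed in all, against 57. All genes passing numbered 33 with no filter, 37 with a pseudocount of 0.1, 12 with the replicate block and 22 to 69 when 1 library was left out. Replicate numbers are not known to pair the libraries (correlations of deviations -0.04 and -0.03 for the same-numbered pairs). With the replicate block 0 members passed, 1 replication member and 11 further mitosis genes were lower at an unadjusted p under 0.05, and Mcm6 (0.23), Ccnd3 (0.11) and Cdkn1b (-0.25) changed sign. Mcm6 also turned with 7 columns, to a value that rounds to 0.0. The mitosis count of 7 was 1 with a filter of 5 TPM in 3 libraries, which removes most members, 4 with a pseudocount of 0.1 and 2 to 9 with 1 library left out. The replication count of 2 was 1 with that filter and 1 to 3. The further mitosis count of 17 was 3 with that filter, 26 with 7 columns and 4 to 18. With 1 library left out no member passed (0 to 0), and medians ranged from -1.99 to -1.32 for mitosis, -0.45 to -0.12 for replication and -1.001 to -0.46 for cyclins and inhibitors. A pseudocount of 0.1 gave -2.70 for mitosis and -1.26 for cyclins and inhibitors. With 1 library left out, signs changed within the ranges of Mcm6 (-0.26 to 0.23), Mcm7 (-0.45 to 0.12), Gins2 (-0.98 to 1.36), Cdc6 (-0.63 to 0.085), Tyms (-0.18 to 1.40), Cenpe (-1.37 to 0.84), Cenpf (-1.76 to 1.28), Ccnd3 (-1.19 to 0.039) and Cdkn1b (-0.14 to 0.34). Where the fit leaves 1 Npy library, it is assumed to vary like the others. The causes were not tested.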

Other observations

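Among the cell cycle control genes, 3 were chosen after their values were seen, because they lay opposite to the mitosis genes. Myc, a growth-promoting transcription factor, stood at 64.8, 40.7, 25.5 and 34.9 TPM in Pomc replicates 1 to 4, against 9.95 and 4.26 TPM in Npy neurons. Its relative Mycn, a factor of neural progenitors, stood at 78.3, 48.2, 54.6 and 46.3 TPM against 25.8 and 10.4 TPM. The CDK inhibitor Cdkn1c (p57) stood at 198, 217, 200 and 226.9 TPM against 113 and 132 TPM. In all 3 genes every Pomc library lay above both Npy libraries, as the choice favoured. The same held for 4 of the 42 tested control genes (8.05% of all tested genes), and the reverse for 6 (7.86%). None of the 3 passed over all genes by limma (log2 2.41 ± 0.48, 1.70 ± 0.40 and 0.78 ± 0.17, adjusted p = 0.11, 0.195 and 0.162).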
